A study of Mus musculus with 4 samples.

Results

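The Bex genes (brain expressed, X-linked) encode small, largely unstructured proteins best known from neurons, and 4 of them, *Bex1*, *Bex2*, *Bex3* and *Bex4*, were followed here in mouse colonoids given butyrate. The rows were taken by symbol, 4 of the 36144 gene names in the count table. The family was chosen by the measured values of *Bex1*, which stood among the genes raised most by butyrate, and the question was whether the other members follow it. The change of *Bex1* is therefore given as a description.

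Colonoids are cultures grown from crypts of the mouse colon, in which epithelial stem cells and their progeny form hollow or budding structures. The 4 conditions, each with 1 library, were 48 h and 72 h of culture with or without 2 mM sodium butyrate, a short-chain fatty acid made by gut bacteria that inhibits histone deacetylases. The labels give a wild-type male mouse of 24 weeks for all 4 libraries, whereas the methods describe a Hes1-GFP reporter line, and cultures were at passage 3. All 4 libraries shared a medium with EGF, Noggin, R-spondin, the GSK3 inhibitor CHIR99021 and the ROCK inhibitor Y-27632. The values are whole-number counts per gene, rounded from estimates of a pseudoalignment, with totals of 20790225 to 24207840 per library. A floor of 3 counts corresponds to 0.124 to 0.144 CPM, the count scaled to the library total. No condition had a replicate, so no difference could be set against replicate error and no p-value was computed. All intervals are 95% intervals that cover counting error only.

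The cultures were epithelial by their markers. The summed normalised counts of 10 colonic epithelium genes, such as *Epcam*, *Cdh1*, *Krt8* and *Cdx2*, were between 166400 and 190003. Neuron and glia genes, 10 in all, summed to 285 (48 h) and 362 (72 h) without butyrate and to 191 and 186 with it, with *Ret* as the largest part and *Hand2*, *Sox10* and *S100b* among those at 0 counts in all 4 libraries. Mesenchymal genes summed to between 118 and 158, with *Col3a1* and *Lum* at 0. The 8 immune and endothelial genes summed to 167 (48 h) and 246 (72 h) without butyrate and to 1231 and 507 with it. Most of this was *Cd68*, a lysosomal protein of macrophages, with 128 and 172 counts without butyrate and 1309 and 420 with it. *Csf1r*, a growth factor receptor of macrophages, had 1 (48 h) and 0 (72 h) counts without butyrate and 2 and 16 with it. *Ptprc*, which marks all leukocytes, had 5 (48 h) and 15 (72 h) counts without butyrate and 6 at both times with it. *Csf1r* and *Ptprc* were named after their counts were seen. The part of these cells in the Bex values was not tested. In bulk RNA, fewer cells of a type and less RNA per cell cannot be told apart.

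Bex proteins act as adaptors. Bex1 and Bex3 bind the intracellular part of the p75 neurotrophin receptor, and Bex3 is also known as NADE, an executor of cell death through that receptor. Bex2 binds the LIM-only protein LMO2 in DNA-binding complexes, and BEX4 associates with microtubules. The genes arose by duplication in placental mammals and lie side by side on the X chromosome, among genes of the related Tceal family.

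All 4 lie within 205 kb of the X chromosome in the GRCm38 build. *Bex2* (ENSMUSG00000042750) is at chrX:136066564-136068236 on the minus strand, *Bex4* (ENSMUSG00000047844) at chrX:136138996-136140443 on the plus strand, *Bex1* (ENSMUSG00000050071) at chrX:136213972-136215513 on the minus strand, and *Bex3* (ENSMUSG00000046432) at chrX:136270253-136271978 on the plus strand. The sequences before their starts are shown because they divide the family into pairs. All 4 members matched RefSeq promoters of GRCm38.p6, each of 300 bases, with 250 before the start and 50 after it. The *Bex1* and *Bex4* windows aligned over 290 bases with 99.0% identity and shared an unbroken identical run of 271 bases. The *Bex2* and *Bex3* windows aligned over 199 bases, also with 99.0% identity, and shared a run of 162 bases. Between the pairs the longest identical run was 9 bases. The 250 bases before each start follow, read 5′ to 3′ on the strand of the gene, with the longest run that the 250-base stretches of a pair share in capitals. It is 221 bases in *Bex1* and *Bex4* and 145 in *Bex2* and *Bex3*, shorter than the runs above, which go on past the start of *Bex1* and of *Bex2*.

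Bex1, chrX:136215514-136215763, minus strand: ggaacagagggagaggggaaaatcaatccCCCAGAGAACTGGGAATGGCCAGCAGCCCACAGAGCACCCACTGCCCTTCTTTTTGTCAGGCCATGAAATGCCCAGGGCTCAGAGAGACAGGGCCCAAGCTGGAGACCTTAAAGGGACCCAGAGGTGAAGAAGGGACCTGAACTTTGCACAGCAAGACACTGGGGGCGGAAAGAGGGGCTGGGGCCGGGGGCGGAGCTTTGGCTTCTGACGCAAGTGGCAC
Bex4, chrX:136138746-136138995, plus strand: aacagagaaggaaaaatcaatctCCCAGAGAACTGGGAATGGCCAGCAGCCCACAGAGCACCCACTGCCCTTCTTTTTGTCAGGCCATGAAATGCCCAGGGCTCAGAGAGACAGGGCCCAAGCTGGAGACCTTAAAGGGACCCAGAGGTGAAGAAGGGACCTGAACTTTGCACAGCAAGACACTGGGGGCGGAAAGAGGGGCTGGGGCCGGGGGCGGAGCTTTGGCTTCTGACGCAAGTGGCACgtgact
Bex2, chrX:136068237-136068486, minus strand: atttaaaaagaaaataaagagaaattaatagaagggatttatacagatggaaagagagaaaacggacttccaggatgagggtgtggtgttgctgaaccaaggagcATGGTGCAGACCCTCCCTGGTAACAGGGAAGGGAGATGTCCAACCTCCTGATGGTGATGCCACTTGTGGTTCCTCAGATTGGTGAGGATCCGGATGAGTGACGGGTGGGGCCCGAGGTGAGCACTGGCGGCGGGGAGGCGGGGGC
Bex3, chrX:136270003-136270252, plus strand: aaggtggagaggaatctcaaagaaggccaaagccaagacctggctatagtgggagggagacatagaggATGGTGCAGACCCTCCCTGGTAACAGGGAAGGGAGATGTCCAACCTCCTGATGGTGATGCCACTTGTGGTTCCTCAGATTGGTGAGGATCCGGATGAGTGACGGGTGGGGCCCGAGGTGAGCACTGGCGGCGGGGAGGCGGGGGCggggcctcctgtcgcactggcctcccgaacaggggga

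In the 300-base windows the GC box GGGCGG, searched on both strands, occurred 2 times in *Bex1* and in *Bex4* and once in *Bex2* and in *Bex3*. It was present in 35.9% of 27025 promoter windows of the same length, 1 per gene symbol. The palindromic E box CACGTG was in the windows of *Bex1*, *Bex3* and *Bex4* and in 7.24% of all windows. CCAAT was in *Bex2* and *Bex3* and in 37.9% of all windows. TATAAA was in *Bex2* and in 14.2%, and the cyclic AMP response element TGACGTCA was in 0 of the 4 and in 1.88%. No match overlapped another. The windows held 60.0% to 63.7% G and C in *Bex1*, *Bex3* and *Bex4* and 56.3% in *Bex2*, beside a median of 52.7% over all windows. These matches describe the letters and were not tested against the counts.

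*Bex1* had 104 (48 h) and 84 (72 h) counts without butyrate, against 608 (48 h) and 599 (72 h) with it. Both butyrate libraries were above both untreated ones. After scaling by library size factors, the ratio of butyrate to untreated was 5.19 (4.21 to 6.45) at the earlier and 7.80 (6.2 to 9.92) at the later time. On the log2 scale, with a pseudocount of 1 normalised count, these changes were 2.36 and 2.95, which ranked *Bex1* at 170 and 50 from the highest of the 13979 genes that passed the count filter (over 10 counts in 2 or more libraries). Between the untreated libraries, *Bex1* changed by −0.35 (−0.79 to 0.07) from 48 h to 72 h, and between the butyrate libraries by 0.23 (0.06 to 0.40). These comparisons over time reuse the libraries of the comparisons with butyrate.

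*Bex4*, which shares most of its upstream sequence with *Bex1*, had 1 (48 h) and 2 (72 h) counts without butyrate, against 23 (48 h) and 53 (72 h) with it. It was thus under the floor of 3 counts in both untreated libraries and above it in both butyrate libraries. The scaled ratio was 20.4 with a wide interval (3.31 to 841) at 48 h and 29.0 (7.64 to 246) at 72 h. On the log2 scale the changes were 3.43 and 4.29, at 49 and 10 from the highest. With so few untreated counts these values rest on the pseudocount, and with 5 in place of 1 they were 2.10 and 3.16. *Bex4* passed the count filter only through the butyrate libraries. Of 19897 genes with at most 3 counts in both untreated libraries, 14902 of which had no count at all, 4 (0.0201%) had at least 20 counts in both butyrate libraries. They were *Bex4*, *Dnajc6*, which encodes the clathrin uncoating factor auxilin of neurons, *Gm47893* and *Tmem35a*, a chaperone of nicotinic receptors that is also X-linked. This threshold was set after the values of *Bex4* were seen. From 48 h to 72 h, *Bex4* was 2.74-fold (1.65 to 4.69) higher between the butyrate libraries, and its count in the untreated ones was too low for a comparison.

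*Bex3* was the most abundant member, with 1153 (48 h) and 1306 (72 h) counts without butyrate, against 2576 (48 h) and 1568 (72 h) with it. Both butyrate libraries were again above both untreated ones. The ratio was 1.98 (1.85 to 2.13) at the earlier time and 1.31 (1.22 to 1.41) at the later one, or 0.99 and 0.39 on the log2 scale. The untreated libraries differed little, by 0.13 (0.01 to 0.24) from 48 h to 72 h, while the butyrate library at 72 h was lower than that at 48 h by a log2 change of −0.46 (−0.56 to −0.37).

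*Bex2* took another course. It had 82 (48 h) and 93 (72 h) counts without butyrate, against 133 (48 h) and 47 (72 h) with it, so that the butyrate libraries held both its highest and its lowest count. Butyrate over untreated gave a ratio of 1.44 (1.08 to 1.92) at the earlier time and 0.553 (0.381 to 0.793) at the later one. The log2 changes were 0.52 (0.12 to 0.94) and −0.84 (−1.39 to −0.33), with intervals on opposite sides of 0. Of the 13979 genes, 245 (1.75%) were higher at 48 h and lower at 72 h by at least 0.5 each, a limit set after the values were seen. The untreated libraries differed by 0.13 (−0.31 to 0.58) and the butyrate libraries by −1.23 (−1.76 to −0.76) from 48 h to 72 h.

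**Figure D1:**
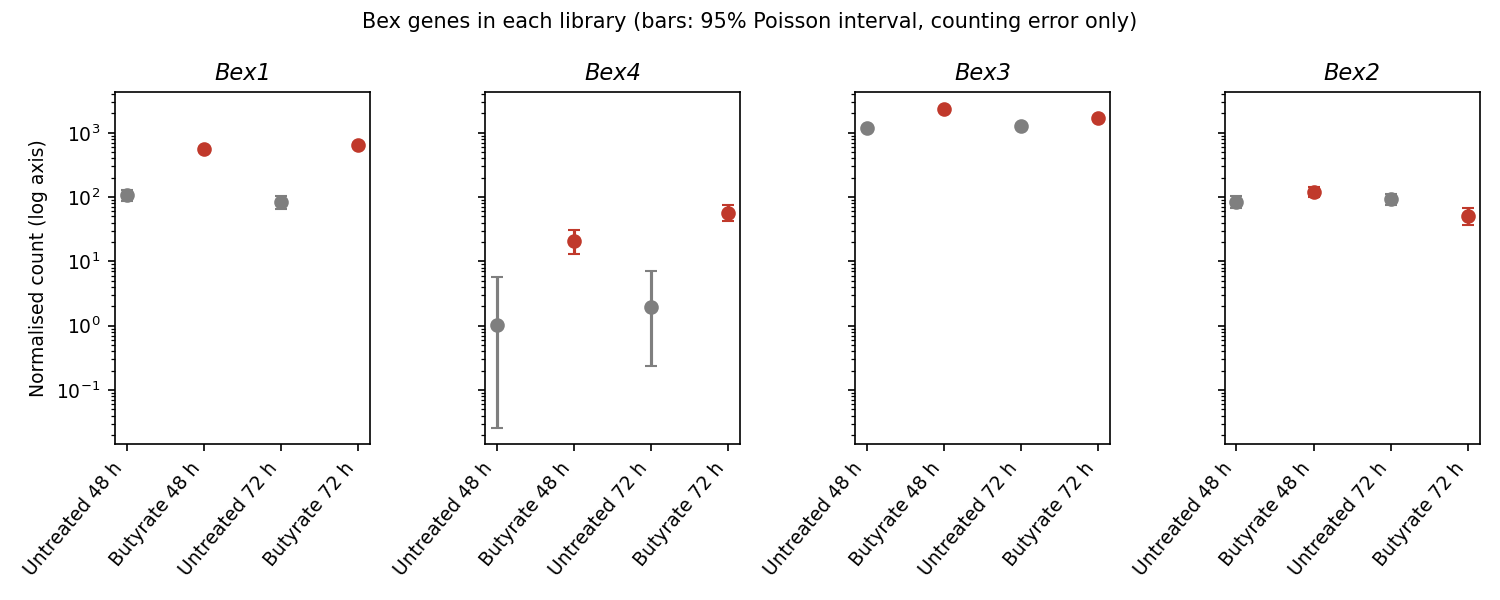
Normalised counts of the 4 Bex genes (log axis) in each library, untreated in grey and butyrate in red, with 95% Poisson intervals as bars. *Bex1* and *Bex4* are higher with butyrate at both times, *Bex3* less so, and *Bex2* has its lowest value with butyrate at 72 h.

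At least 2-fold higher with butyrate were *Bex1* and *Bex4* at 48 h, beside 6.94% of all 13979 genes, and again *Bex1* and *Bex4* at 72 h, beside 4.53%. Both held at both times, as did 2.55% of all genes. Nothing is read from these shares, since the family was chosen by *Bex1* and *Bex4* entered through its butyrate libraries. A ratio of ratios, which needs no scaling, was taken for the 6 pairs of members. Pairs with *Bex1* or *Bex4* are a description, since *Bex1* was chosen for its change and *Bex4* passed through its butyrate libraries. The butyrate to untreated ratio of *Bex1* was 3.6 times that of *Bex2* at 48 h and 14.0 times at 72 h, and 2.62 times and 5.94 times that of *Bex3*. Between *Bex1* and *Bex4*, on 1 and 2 untreated counts of *Bex4*, it was 0.254 (0.00611 to 1.60) at the earlier and 0.269 (0.0312 to 1.06) at the later time. The ratio of *Bex2* was 0.0710 times (0.00169 to 0.454) and then 0.0194 times (0.00220 to 0.0793) that of *Bex4*, and the ratio of *Bex3* 0.0972 times (0.00236 to 0.600) and then 0.0453 times (0.00534 to 0.173). The ratio of *Bex2* was 0.726 times that of *Bex3* (0.542 to 0.977) at 48 h, where both were higher with butyrate, and 0.421 times (0.288 to 0.609) at 72 h, where *Bex2* was lower and *Bex3* higher. Within a gene, the ratio at 72 h over that at 48 h was 1.5 (1.09 to 2.08) for *Bex1*, 0.385 (0.240 to 0.614) for *Bex2*, 0.663 (0.598 to 0.734) for *Bex3*, and 1.42 (0.0231 to 28.5) for *Bex4*. *Bex2* and *Bex3* thus had a smaller ratio at the later time.

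**Figure D2:**
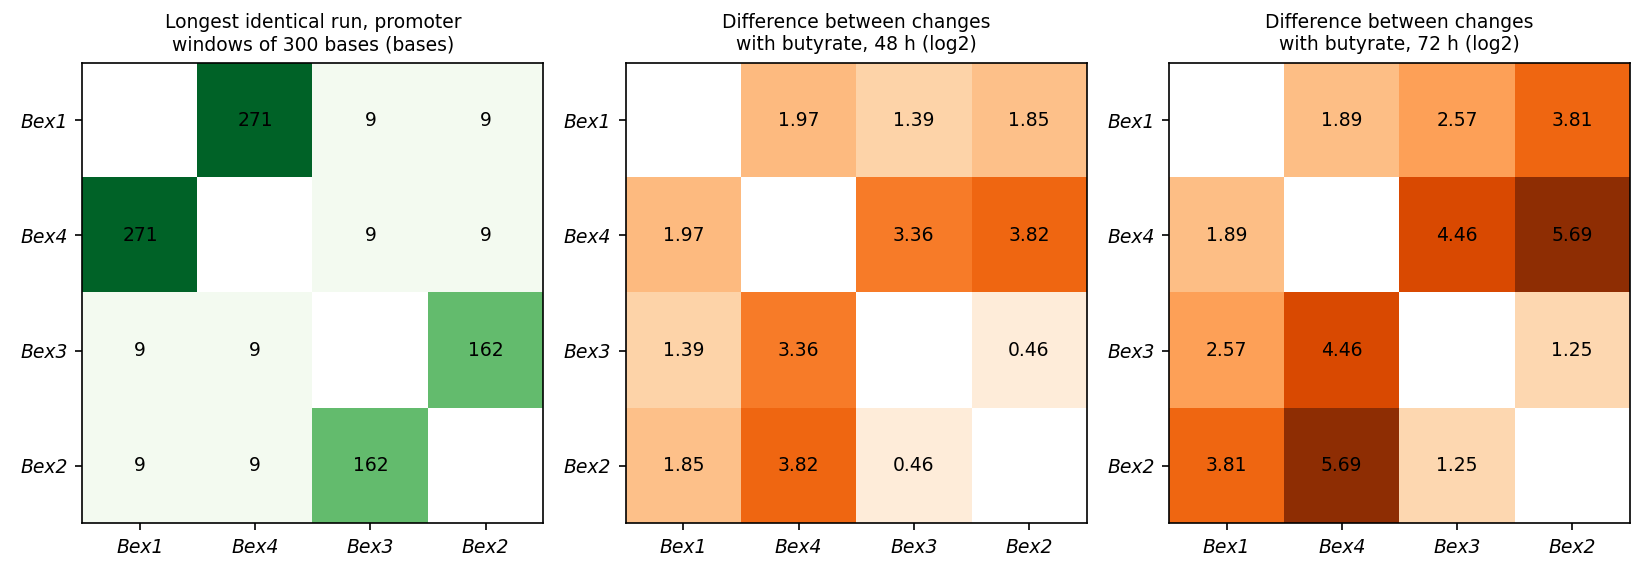
Left, the longest identical run of bases between the promoter windows of each pair of Bex genes. Middle and right, the size of the difference between their log2 changes with butyrate (log2 of the ratio of ratios) at 48 h and 72 h. Runs of 271 and 162 bases join *Bex1* to *Bex4* and *Bex2* to *Bex3*. Differences with *Bex4* carry no pseudocount and rest on its 1 and 2 untreated counts, so that no order is read from them. The relation between the panels was not tested.

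Per length, *Bex3* was also the highest member. Its level in CPM per kb of exon was 54.9 (48 h) and 56.9 (72 h) without butyrate, and 109 and 77.5 with it. Between 94.6% and 97.4% of the genes that passed the filter had a lower level in the same library. *Bex1* was at 4.07 and 3.00 CPM per kb without butyrate and at 21.2 and 24.3 with it, which moved it from above 37.9% to 42.9% of genes to above 84.0% to 86.7%. *Bex2* was at 4.21 and 4.37 CPM per kb without butyrate and at 6.08 and 2.5 with it. *Bex4* was at 0.0554 and 0.101 without butyrate, on 1 and 2 counts, and at 1.14 and 3.05 with it. In untreated cultures the order was *Bex3*, then *Bex2* and *Bex1*, whose counting intervals overlapped at 48 h (3.35 to 5.23 and 3.32 to 4.93) and at 72 h (3.53 to 5.35 and 2.40 to 3.72), then *Bex4*. With butyrate *Bex1* stood second at both times, and at 72 h the levels of *Bex4* (2.28 to 3.98) and *Bex2* (1.84 to 3.33) overlapped.

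The makeup of the family shifted with these changes. The summed Bex counts were 1340 (48 h) and 1485 (72 h) without butyrate, against 3340 and 2267 with it, a ratio of 2.21 (2.08 to 2.36) and 1.67 (1.56 to 1.78) after scaling. *Bex1* made up 7.76% (6.39 to 9.33, Clopper-Pearson) of them at 48 h and 5.66% (4.54 to 6.96) at 72 h without butyrate, and 18.2% (16.9 to 19.6) and 26.4% (24.6 to 28.3) with it. *Bex3* took a smaller share with butyrate, 77.1% (75.7 to 78.5) and 69.2% (67.2 to 71.1), than without it, 86.0% (84.1 to 87.9) and 87.9% (86.2 to 89.6). *Bex2* was at 6.12% and 6.26% without butyrate and at 3.98% and 2.07% with it. *Bex4* reached 2.34% (1.76 to 3.05) with butyrate at 72 h, from 0.135% (0.0163 to 0.486) in the untreated library.

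**Figure D3:**
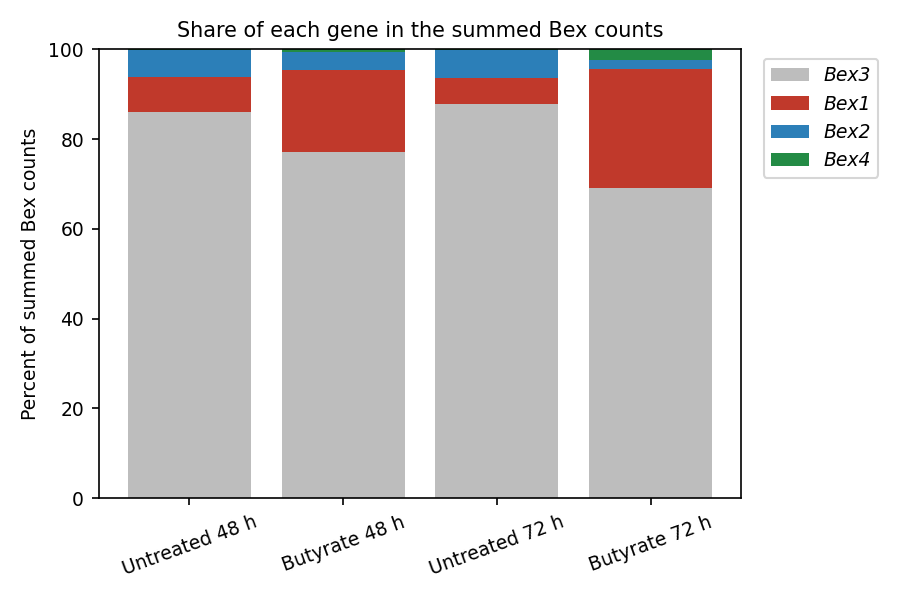
Percent of the summed counts of the 4 Bex genes taken by each gene, per library. The share of *Bex1* is larger in both butyrate libraries, at 18.2% and 26.4%, than in the untreated ones, at 7.76% and 5.66%.

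Because the members are near copies in places, reads can be shared between them. Of the distinct 31-base words in GENCODE transcripts, the default word length of kallisto, 40.0% of the 1237 of *Bex1* also occurred in other genes, among them 222 in *Bex4*, 176 in *Tceal7*, which overlaps *Bex1* on the other strand, and 147 in *Bex2*. For *Bex4* the share was 59.9% of 807, with 222 words in *Bex1*, 226 in the pseudogene *Gm12245* and 214 in the pseudogene *Gm4322*. *Bex2* shared 163 words with *Bex3* and 147 with *Bex1*, 35.5% of its 873 in all, and *Bex3* shared 16.4% of 994. *Tceal7*, *Gm12245* and *Gm4322* had no count in any library. *Bex4* took 0.952% (0.0241 to 5.19) of the counts of *Bex1* and *Bex4* together at 48 h and 2.33% (0.283 to 8.15) at 72 h without butyrate, and 3.65% (2.32 to 5.42) and 8.13% (6.15 to 10.5) with it. Summed, *Bex1* and *Bex4* changed by 2.40 and 3.04 on the log2 scale, and *Bex2* and *Bex3* by 0.96 and 0.34. The sum of *Bex1* and *Bex2* changed by 1.82 and 1.99. The part of shared reads in the values of *Bex4* and *Bex2* was not tested.

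Along the cluster the changes did not rise or fall steadily with the order of the genes. Among the genes that passed the filter, the adjacent *Bex4*, *Tceal8* and *Bex1* had the largest changes at 72 h, at 4.29, 1.57 and 2.95. At 48 h *Bex3*, at 0.99, stood above *Tceal8*, at 0.90. *Bex1* was chosen for its change and *Bex4* passed through its butyrate libraries, so this is a description. Of 11 annotated genes between the outer ends of *Bex2* and *Bex3*, 6 passed the filter. *Tceal8*, a transcription elongation factor A-like gene between *Bex4* and *Bex1*, had 86 (48 h) and 75 (72 h) counts without butyrate, against 182 (48 h) and 206 (72 h) with it, a log2 change of 0.90 (0.53 to 1.30) and 1.57 (1.20 to 1.99). *Tceal9*, between *Bex1* and *Bex3*, had 3382 and 3275 counts without butyrate and 3174 and 3421 with it, a change of −0.26 (−0.33 to −0.19) and 0.19 (0.12 to 0.26). *Tceal9* thus stood at a high level in every library beside *Bex1* and *Bex3*, and its direction differed between the times.

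**Figure D4:**
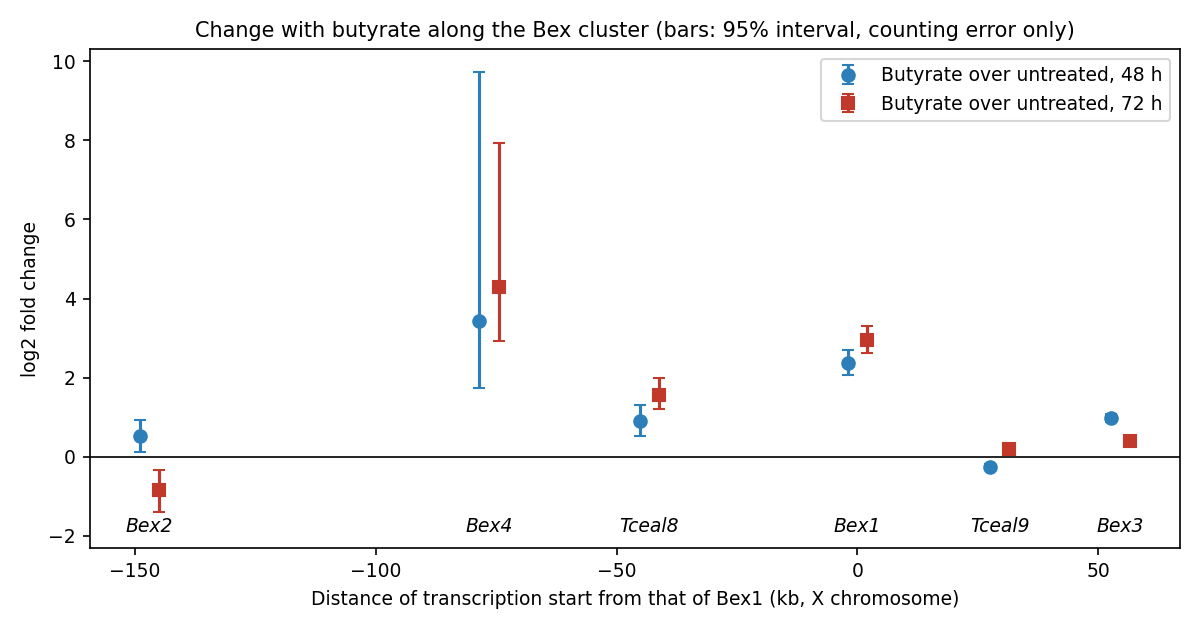
Log2 fold change of butyrate over untreated for the 6 genes that passed the filter of the cluster against the distance in kb of their start from that of *Bex1*, at 48 h (circles) and 72 h (squares). Points carry a pseudocount of 1, and bars are 95% counting intervals without it. *Bex4*, *Tceal8*, *Bex1* and *Bex3* are higher at both times, while *Tceal9* stays within 0.26 of 0.

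The Tceal, Armcx and Gprasp families, whose genes also lie on the X chromosome, gave 16 listed genes, 12 of which passed the filter. Their median log2 change was 0.06 at 48 h and 0.08 at 72 h, with 7 of 12 higher at each time, beside 48.7% and 50.3% of all genes and medians of −0.011 and 0.002 over all genes that passed. At least 2-fold higher at both times were 0 of the 12, beside 2.55% of all genes. Beside *Tceal8*, *Bhlhb9* was higher at both times, at 0.89 (0.19 to 1.68) and 0.88 (0.26 to 1.56). *Armcx1*, one of a group of mitochondrial proteins with armadillo repeats, was at −1.19 (−1.69 to −0.74) and −0.42 (−0.96 to 0.09). *Armcx3*, which links mitochondria to their transport in axons, was at −0.14 and 0.28. *Gprasp1*, a sorting protein of G protein-coupled receptors, was at 0.10 and −0.04, *Armcx5* at −0.17 at both times, *Gprasp2* at 0.02 and −1.05, and *Tceal1* at 0.69 and −0.24. *Armcx2* was at 1.04 and 0.03, *Armcx4* at 0.37 and 0.20, and *Armcx6* at −0.37 and 0.12, each on fewer than 23 counts per library. *Tceal5*, *Tceal6* and *Tceal7* had no counts, *Tceal3* at most 5, and the autosomal *Bex6* 1 in all. *Gprasp1*, *Armcx5* and *Bhlhb9* overlap in the annotation, so that their reads may be shared. Of 415 other genes on the X chromosome that passed, 23 (5.54%) were at least 2-fold higher at 48 h, 18 (4.34%) at 72 h and 8 (1.93%) at both times, beside 6.94%, 4.53% and 2.55% of all genes. At least 2-fold lower were 13 at 48 h, 21 at 72 h and 2 at both times.

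**Figure D5:**
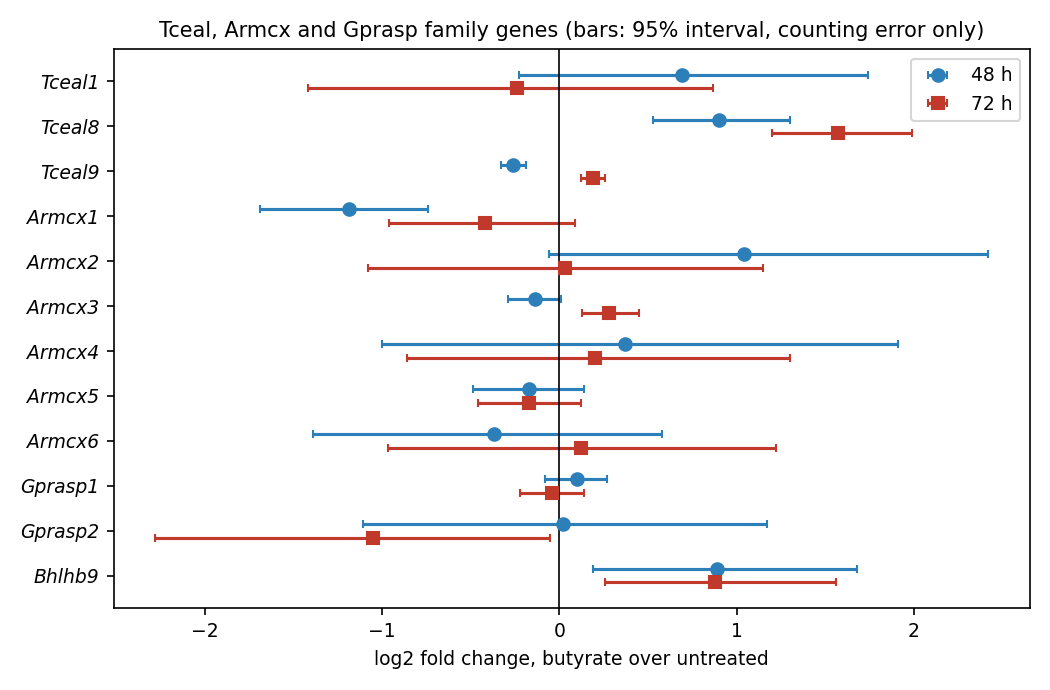
Log2 fold change of butyrate over untreated for the 12 Tceal, Armcx and Gprasp family genes that passed the filter, at 48 h (circles) and 72 h (squares), with 95% counting intervals as bars. *Tceal8* and *Bhlhb9* have both intervals above 0, and *Armcx1* has the lowest value at 48 h.

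The known partners of Bex proteins were next followed. Of 15 genes around the p75 receptor, 10 passed the filter. Their median change was −0.19 at the earlier and 0.08 at the later time, and 0 were at least 2-fold higher at both times, beside 2.55% of all genes. The receptor gene *Ngfr* itself had 2 and 5 counts without butyrate and 5 and 1 with it. Its ligand gene *Ntf5*, for neurotrophin 4, had 8 and 16 counts without butyrate and 50 and 18 with it, a change of 2.34 (1.38 to 3.76) and 0.28 (−0.76 to 1.37). The receptor tyrosine kinase gene *Ntrk3* was at 0.20 (−0.91 to 1.38) and 1.22 (0.30 to 2.35). *Sort1*, the coreceptor sortilin, was at −0.15 and −0.20 with between 4544 and 5728 counts, and *Ywhae*, the 14-3-3 protein that binds Bex3, was at 0.02 at both times. Around LMO2, 3 of 7 genes passed, with medians of −0.23 and −0.28, and *Lmo4* was at −0.56 and −0.28. *Lmo2* had between 1 and 7 counts and *Nhlh2*, which encodes another partner of Bex2, between 1 and 3. *Ngfr*, *Lmo2* and *Nhlh2* were named after their counts were seen.

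REST is a repressor that keeps neuronal genes off outside neurons, and its list served as a comparison for the Bex genes, best known from neurons. Of 22 genes, 17 passed. Their median change was −0.04 at the earlier and −0.22 at the later time, and 1 was at least 2-fold higher at both times, beside 2.55% of all genes. With 17 genes, a count of 1 is no result about the list. The gene was *Rcor2*, a REST corepressor, with 313 and 216 counts without butyrate and 954 and 669 with it, a change of 1.43 (1.25 to 1.62) and 1.76 (1.54 to 1.99). *Unc13a*, a synaptic vesicle priming factor, was at 0.70 and 0.68. *Rundc3a* was at 2.11 (1.83 to 2.42) and 0.25 (−0.08 to 0.59). The granin *Scg3* was at −0.75 and −0.76, *Syn1* at −0.45 and −0.53, and *Syp* at −0.26 and −0.54.

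Enteroendocrine and tuft cells are the colonic epithelial types with neuron-like genes, so their markers were set beside the members. Of 17 enteroendocrine genes, all of which passed the filter, 9 were higher at 48 h, with a median of 0.03, and 2 at 72 h, with a median of −0.73, beside 48.7% and 50.3% of all genes. *Insm1* was at −1.39 and −0.50, *Fev* at −0.65 and −0.73, and *Sst*, on at most 19 counts, at −2.68 and −2.22. The 2 genes higher at 72 h were *Scg5*, a chaperone of hormone processing, at 0.92 and 0.23, and *Nts*, at 0.67 and 0.06. Others were higher at 48 h and lower at 72 h, such as *Chgb* at 0.40 and −0.81 and *Tph1* at 1.22 and −1.05. The 5 tuft genes were all lower at both times, with medians of −0.24 and −1.68, among them *Trpm5* at −0.46 and −1.68 and *Sh2d6* at −0.75 and −2.11. The part of enteroendocrine and tuft cells in the Bex values was not tested.

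The genes with the pattern nearest to each member were found over the 4 libraries, among the 11652 genes whose normalised counts averaged 50 or more, by the Euclidean distance between log2 values centred on the gene. *Bex4*, at a mean of 20.3, was too low to enter. Nearest to *Bex1* were *Krt4*, a keratin of stratified epithelia (distance 0.282), *Sema3f*, a secreted guidance cue (0.438), *Fscn1*, the actin-bundling fascin (0.478), *Hspg2*, the basement membrane proteoglycan perlecan (0.518), and *Prom2* (0.542). *Krt4* had 213 and 202 counts without butyrate and 1143 and 1127 with it. Nearest to *Bex2* were *H2-T3* (0.065), *Tnfsf15* (0.078), *2310039H08Rik* (0.089), *Gm49325* (0.147) and *Clec2h* (0.177). *H2-T3*, a non-classical class I gene of intestinal epithelium, had 258 and 285 counts without butyrate and 425 and 154 with it. Nearest to *Bex3* were *Mpp2* (0.074), *Snrpn* (0.076), *Lpcat4* (0.080), *Tns4* (0.100) and *S100pbp* (0.103). *Snrpn*, a neuronal splicing protein gene, had 478 and 512 counts without butyrate and 1039 and 658 with it. None of the 15 is a Bex gene, and between members the distance was 1.010 for *Bex2* and *Bex3*, 2.056 for *Bex1* and *Bex3* and 3.021 for *Bex1* and *Bex2*. The distances of *Bex4*, at 1.604 from *Bex1*, 3.453 from *Bex3* and 4.448 from *Bex2*, rest on its 1 and 2 untreated counts. With 4 libraries many genes lie close to any pattern, so that these names are a description.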

How the data were processed

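Bulk poly-A RNA-seq of mouse colonoids was analysed, with 1 library per condition and 4 in all. The authors deposited counts per gene symbol, estimated with a kallisto-based pseudoalignment (kallisto 0.44.0 and GRCm38.p6 in the submitters' processing notes), summed to genes with tximport and rounded, without normalisation or filter. How reads of near-identical genes were split depends on that step. The strand setting was not given in the sources used here.

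Following the study's methods, a gene needed over 10 counts in 2 or more libraries, and size factors came from DESeq2 1.42.0 in R 4.3.3. Log2 fold changes used a pseudocount of 1. Intervals at the 95% level were exact Clopper-Pearson intervals on pairs of counts or shares, Poisson intervals on counts, and exact conditional intervals for ratios of ratios (scipy 1.17.1 in Python 3.11.15). No molecular identifiers are described, and these cover counting error only. Without replicates, no test was run. Levels per kb used the union of GENCODE M21 exons. Promoter sequences were RefSeq's and alignments local (Biopython 1.88, match 1, mismatch −1, gap −3 to open and −1 to extend). Fold changes and intervals were tested on simulated data.

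The members and gene lists were chosen with earlier results of these data known. Genes named were the 4 members, the 5 nearest patterns of each member whose normalised counts averaged 50 or more, related X-linked genes that passed the filter, and of each other list up to 3 genes highest and 3 lowest by the smaller of their 2 changes, where both had 1 sign. Defining markers of the cell types were named outside this rule, after their values were seen. Other exceptions are stated, and 1 marker gene is not reported here. TMM (edgeR 4.0.16) and total count scaling, pseudocounts of 5 and 0.5, other filters and summed copies were tried as alternatives.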

Additional observations from a re-analysis of the deposited data

Results flagged for a closer look

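*Bex2* changed in opposite directions with butyrate at the 2 times, with a log2 change of 0.52 at 48 h and −0.84 at 72 h. Both counting intervals excluded 0, and the ratio at 72 h was 0.385 times that at 48 h (0.240 to 0.614). With 1 library per condition the difference between the times was not tested against replicates. Summed with *Bex1* or *Bex3*, with which *Bex2* shares sequence, the change at 72 h was of opposite sign, at 1.99 or 0.34. The part of shared reads was not tested.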

How the results depend on the processing

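With single libraries, differences between cultures and effects of butyrate cannot be told apart, and low counts limit *Bex4* most. The labels give no replicates that could pair libraries. A fit of butyrate with time as a block, which would take both times as replicates of 1 effect, was not run. No library was left out in turn. All 72 recomputed changes of the members under TMM scaling, total count scaling, size factors from all genes with a count in every library and pseudocounts of 5 and 0.5 kept their direction and stayed within their counting intervals, which for *Bex4* are wide. With a pseudocount of 5 the changes of *Bex4* were 2.10 at 48 h and 3.16 at 72 h. Total count scaling moved the median of all genes that passed the filter at 72 h from 0.002 to 0.054.

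*Bex1* and *Bex2* summed gave 1.82 at 48 h and 1.99 at 72 h, below the intervals of *Bex1*, above that of *Bex2* at 48 h and of opposite sign to *Bex2* at 72 h. *Bex2* and *Bex3* summed, a sum chosen after seeing the data, gave 0.96 at 48 h and 0.34 at 72 h, within the intervals of *Bex3*, above that of *Bex2* at 48 h and again of opposite sign to it at 72 h. The cause was not tested. *Bex1* and *Bex4* summed, also chosen after seeing the data, stayed within both intervals. Without *Bex3*, the share of *Bex1* in the Bex counts was 55.6% (48 h) and 46.9% (72 h) without butyrate and 79.6% and 85.7% with it. That of *Bex2* was 43.9% and 52.0%, and 17.4% and 6.72%. That of *Bex4* was 0.535% and 1.12%, and 3.01% and 7.58%.

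Among genes whose normalised counts averaged 50 or more, 458 genes were at least 2-fold higher at 48 h, 271 at 72 h and 162 at both times, against 970, 633 and 356 with the main filter. With at least 1 count, the numbers were 2332, 2253 and 675, because more low genes were counted. Of 80 recomputed medians of gene lists, 75 moved by less than the counting error of the median, 2 changed sign and 3 moved by more. The related X-linked families, at −0.156, and the REST list, at 0.00129, changed sign at 48 h in genes averaging 50 or more. In those genes the neuron and glia median moved from −0.42 to −0.83 at 48 h and from −0.49 to −1.56 at 72 h. There too the median of LMO2 partners at 72 h moved from −0.28 to −0.0064, and that of the REST list from −0.22 to −0.096. With total count scaling the epithelium median at 72 h moved from −0.21 to −0.15.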
